A study of Mus musculus with 6 samples.

Results

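The intestinal identity factors and enterocyte genes are 9 genes chosen by name, out of 21966 genes in the deposited table. 5 encode transcription factors of the gut epithelium (Cdx1, Cdx2, Hnf4a, Gata4 and Gata6) and 4 encode proteins of absorptive cells (Cdh17, Lgals4, Vil1 and Fabp2). All 9 were found, and all 9 had a usable estimate in both conditions, as had 21959 genes in all. The question was whether cells in which an inhibitor of group I Paks is expressed, and in which epithelial genes stand higher, also carry more RNA of genes that make an epithelium intestinal.

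RNA was sequenced from primary cell lines grown from colonic tumors of mice that carried CDX2P-NLS-Cre and a Cre-deleted Apc allele beside a normal one (Δ/+). PID+ cells came from such mice that also carried ROSA26-PID, a Cre-dependent transgene for a Pak autoinhibitory peptide with an eGFP reporter, and PID- cells from mice without it. The Cre is driven by a CDX2 promoter in both groups. The paper describes transgene expression as confined to epithelium, mainly of the large bowel and the distal small bowel. Where the deletion took place in the cells behind these lines was not tested here. Each group has 3 labelled samples, PID+ from mice numbered 4, 7 and 26 and PID- from mice numbered 1, 2 and 3. The labels call PID- untreated and describe PID+ by the transgene, while the deposited table names the conditions untreated and treated. The labels also call the PID- samples normal, whereas the methods derive them from tumors, and the study gives its PID- lines other numbers than the labels do. The study killed both cohorts at a common adult age unless they fell ill, the age of the mice behind these lines is not stated separately, and the PID transgene has no value here against which the labels could be checked. The paper reports a gain of E-Cadherin in PID+ cells, and the level of its gene here is given below.

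In the gut epithelium, the Cdx homeobox factors set intestinal identity along the tube, and GATA and HNF4 factors act with them on genes of absorptive cells. Enterocytes then build a brush border of microvilli, in which villin bundles actin, and take up fats, sugars and peptides. Loss of Cdx2 in the adult intestine is known to shift cells toward a gastric pattern.

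The authors merged the reads of a group, which the labels give as 3 mice and the methods as repeated sequencing runs, so each gene has 1 FPKM (fragments scaled to transcript length and to library size) per condition, with a deposited confidence interval and no value per sample. FPKM summed to 585870 in PID+ cells and 545310 in PID- cells. Where the 2 levels of a gene averaged 10 FPKM or more, the interval typically (median) reached 75.1% above the level for PID+ and 73.9% for PID-. No test over replicates could be made, and a level carried by 1 cell line cannot be told apart from a level shared by several. Low FPKM of genes with 1 transcript were whole multiples of what a read is worth, to within 0.1 read, for 89.2% of 814 values in PID+ cells and 90.9% of 761 values in PID- cells. The FPKM of 1 read in PID+ cells was 1.38 times that in PID- cells, so equal levels rested on fewer reads in PID+ cells.

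In PID+ cells 2 of the 9 genes were lower by 3-fold or more and 0 were higher by as much, on the scale of FPKM + 1. The same rule took 1.72% of all 21959 genes as lower and 1.04% as higher. The 2 lower genes were Cdx2 and Cdh17. By the rule that the deposited intervals lie apart, 1 of the 9 was lower (Cdh17) and 0 were higher, against 0.542% lower and 0.187% higher among all genes. 5 of the 9 had an FPKM under 2 in both conditions and could not have reached 3-fold on this scale. The median log2 change of the 9, PID+ over PID-, was 0.00, as was the median over all genes, with 4 genes above 0, 4 below and Cdx1 at 0. Summed over the 9, the level was 10.7 FPKM in PID+ cells and 46.5 FPKM in PID- cells. Most of this difference came from Cdh17, at 1.67 and 25.9 FPKM, and Cdx2, at 0.542 and 8.04 FPKM, so it does not describe the whole set.

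**Figure D1:**
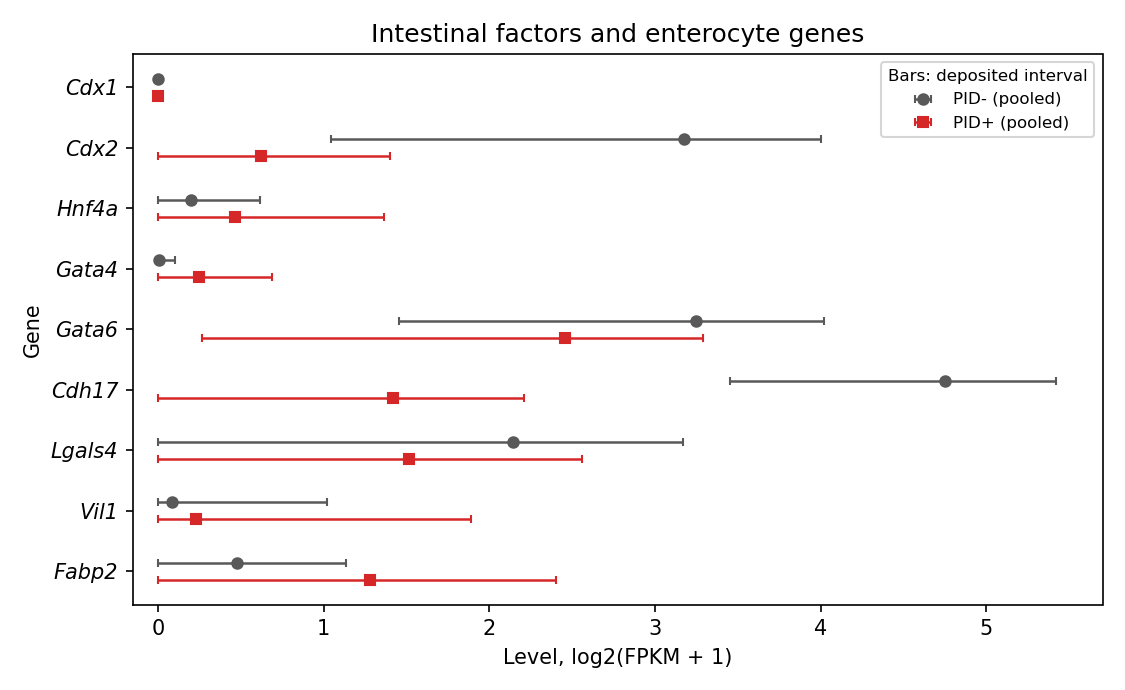
Level of each of the 9 genes as log2(FPKM + 1) on the horizontal axis, with grey circles for PID- cells and red squares for PID+ cells, each 1 pooled value, and bars for the deposited confidence interval. The bars of Cdh17 lie apart, those of Cdx2 overlap between 1.07 and 1.64 FPKM, and Cdx1 sits at 0 in both conditions.

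Cdx2, the homeobox factor that specifies intestine (ENSMUSG00000029646.3, chr5:147300805-147307270, minus strand, GRCm38), had 0.542 FPKM in PID+ cells, with an interval of 0 to 1.64, and 8.04 FPKM in PID- cells, with an interval of 1.07 to 15.0. PID- cells thus held most of the Cdx2 RNA, and the intervals overlapped at their edges. The FPKM ratio was 14.8-fold and the log2 change on FPKM + 1 was -2.55. Cdx2 has 1 annotated transcript, for which these levels correspond to about 77 and 1566 reads. Its place among all genes went from the 63.1 percentile of FPKM in PID- cells to the 46.0 percentile in PID+ cells.

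Cdx1, its paralog (ENSMUSG00000024619.8, chr18:61018862-61036199, minus strand), was listed at 0 in PID+ cells and at 0 in PID- cells. No fold is given for it. An FPKM listed at 0 was common in this table, with 5136 genes in PID+ cells and 5051 in PID- cells.

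Gata6, a zinc finger factor of endoderm and of the crypt (ENSMUSG00000005836.8, chr18:11052064-11085635, plus strand), had the highest level of the 5 factors in each condition. It stood at 4.50 FPKM in PID+ cells, with an interval of 0.202 to 8.79, and at 8.49 FPKM in PID- cells, with an interval of 1.74 to 15.2. The log2 change was -0.79 and the intervals overlapped over most of their length. Gata6 RNA was thus detected in both kinds of cells without a difference beyond the intervals.

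Hnf4a, the nuclear receptor that drives enterocyte genes (ENSMUSG00000017950.13, chr2:163506808-163572910, plus strand), was low in both conditions, at 0.382 FPKM in PID+ cells and 0.149 FPKM in PID- cells, a change of 0.27 on the log2 scale. Gata4, the GATA factor of the proximal small intestine (ENSMUSG00000021944.12, chr14:63198922-63271692, minus strand), stood at 0.190 FPKM in PID+ cells and 0.00665 FPKM in PID- cells. On its longest transcript that is about 42 and 2 reads, so its log2 change of 0.24 rests on almost no reads in PID- cells. The upper ends of the intervals were 1.57 and 0.531 FPKM for Hnf4a, and 0.611 and 0.0758 FPKM for Gata4, in PID+ and PID- cells. The intervals of both factors reach 0 in both conditions, and only Gata4 in PID- cells is down to a few reads.

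Among the enterocyte genes, Cdh17, a cadherin of the intestinal lateral membrane (ENSMUSG00000028217.8, chr4:11758147-11817895, plus strand), showed the largest difference of the 9 on FPKM + 1. It stood at 1.67 FPKM in PID+ cells, with an interval of 0 to 3.62, and at 25.9 FPKM in PID- cells, with an interval of 9.93 to 41.9. The conditions did not overlap, the FPKM ratio was 15.5-fold and the log2 change was -3.33. On chromosome 4, the 560 genes that averaged 5 FPKM or more had a median log2 change of -0.31, and with this median taken off the change of Cdh17 was -3.02. For Cdx2 the median of chromosome 5 was 0.01 over 635 such genes.

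Lgals4, a galectin of the apical surface (ENSMUSG00000053964.13, chr7:28833854-28841708, plus strand), stood at 1.86 FPKM in PID+ cells and 3.43 FPKM in PID- cells. For Lgals4 the log2 change was -0.63, and the intervals, 0 to 4.90 and 0 to 8.01 FPKM, overlapped. Fabp2, the intestinal fatty acid binding protein (ENSMUSG00000023057.5, chr3:122895072-122899506, plus strand), stood at 1.42 FPKM in PID+ cells and 0.395 FPKM in PID- cells. That was about 76 and 29 reads of its 1 transcript. The log2 change of Fabp2 was 0.80 on FPKM + 1 and 1.62, past 3-fold, on FPKM + 0.1, and the intervals of 0 to 4.29 and 0 to 1.19 FPKM overlapped. On FPKM + 1, Fabp2 had the largest upward change of the 9, from 1 low level to another. By the ratio of plain FPKM that of Gata4, with about 2 reads in PID- cells, was larger. These ratios, PID+ over PID-, were 28.6 for Gata4, 3.60 for Fabp2, 2.86 for Vil1 and 2.56 for Hnf4a.

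Vil1, the villin of microvilli (ENSMUSG00000026175.9, chr1:74409376-74435559, plus strand), stood at 0.175 FPKM in PID+ cells and 0.0614 FPKM in PID- cells. The log2 change of Vil1 was 0.15, with intervals that reached 2.71 and 1.03 FPKM. The last 49 bases of Vil1 overlap Usp37 on the other strand, which had 8.31 FPKM in PID+ cells and 6.41 FPKM in PID- cells, and the library kit does not mark strand. Reads of the 2 genes in that stretch cannot be told apart, so the villin level is uncertain. Hnf4a, Fabp2 and Gata6 overlap noncoding genes on the other strand, which were not analysed here, over 34913, 4435 and 504 bases. The overlap takes in the whole of Fabp2, so its level and its upward change, like the levels of Hnf4a and Gata6, may hold reads of the other strand and are uncertain too.

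In PID- cells the order of the levels in FPKM ran from Cdh17 through Gata6, Cdx2, Lgals4, Fabp2, Hnf4a, Vil1 and Gata4 to Cdx1. In PID+ cells it ran from Gata6 through Lgals4, Cdh17, Fabp2, Cdx2, Hnf4a, Gata4 and Vil1 to Cdx1. No gene stood above its next neighbour in either order by more than the deposited intervals. Cdh17 and Cdx2 each stood 2 places lower in the order for PID+ cells, and Vil1 and Gata4, both under 0.2 FPKM, changed places.

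General epithelial genes were set beside the 9. All 20 of a list of junction, keratin and epithelial splicing genes had a higher FPKM in PID+ cells, 17 of them also with Gapdh set equal. 7 of the 20 were higher by 3-fold or more, against 1.04% of all genes. The median log2 change of the 20 was 1.26, against -0.00 over the 9341 genes that averaged 5 FPKM or more. With Gapdh set equal, 0 of the 20 were higher by 3-fold, and these medians were 0.65 and -0.58. Cdh1, the gene of E-Cadherin, stood at 192 FPKM in PID+ cells and 88.0 FPKM in PID- cells, with overlapping intervals. Grhl2, an epithelial transcription factor, stood at 31.1 FPKM in PID+ cells and 7.38 FPKM in PID- cells. St14, which encodes the protease matriptase, stood at 122 and 33.7 FPKM and was the 1 gene of the list with intervals apart. Krt19, the keratin with the highest mean of the 2 conditions, stood at 2469 FPKM in PID+ cells and 2073 FPKM in PID- cells.

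**Figure D2:**
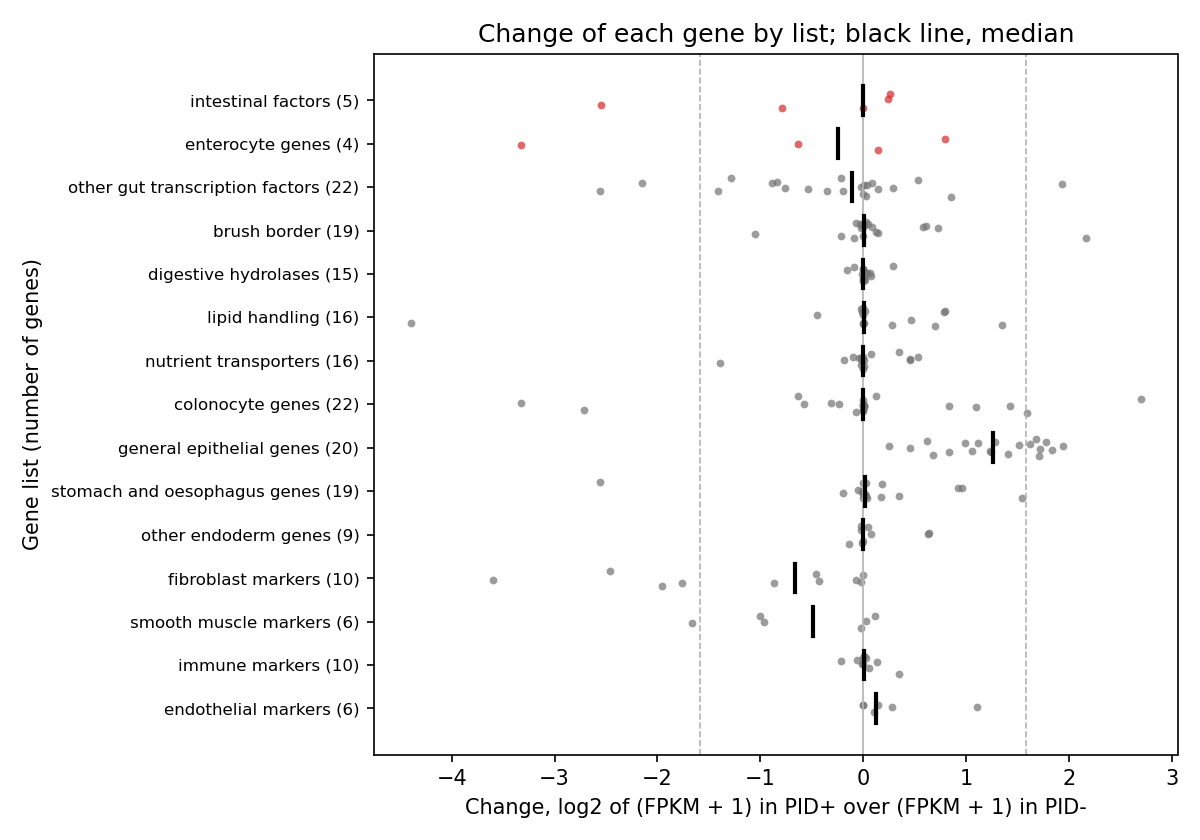
Each point is a gene, placed by its log2 change of FPKM + 1 in PID+ over PID- cells, with 1 row per gene list, black lines for list medians and dashed lines at 3-fold. The 20 general epithelial genes all lie above 0 with a median of 1.26 (17 and 0.65 with Gapdh set equal), while the 5 factors and 4 enterocyte genes spread from -3.33 to 0.80. The lists were chosen with earlier results of these data known.

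Other transcription factors of the gut were mixed, with 1 of 22 at least 3-fold higher and 2 at least 3-fold lower, against 1.04% and 1.72% of all genes. The median log2 change of the 22 was -0.11. Elf3, an ETS factor of differentiating epithelia with the highest mean of the list over the 2 conditions, stood at 103 FPKM in PID+ cells and 26.3 FPKM in PID- cells. Nr1h4, the bile acid receptor, stood at 0.160 FPKM in PID+ cells and 5.83 FPKM in PID- cells. Isx, a homeobox factor of the intestine, was listed at 0 in PID+ cells and stood at 3.44 FPKM in PID- cells. In PID- cells both lower factors stood above the median of all genes, 1.47 FPKM. A call of lower needs at least 2 FPKM in PID- cells, so this was set by the rule. The PID- intervals of both factors reached down to 0. The intervals of both overlapped between conditions, as did those of Elf3, 43.8 to 163 FPKM in PID+ cells and 8.61 to 44.0 FPKM in PID- cells.

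Genes of the absorptive cell were mostly at or near 0 in both conditions. Of 47 genes for digestive hydrolases, lipid handling and nutrient transport, Fabp2 included, 35 had an FPKM under 1 in both conditions and 10 were listed at 0 in both. 0 of the 47 were at least 3-fold higher and 1 was at least 3-fold lower. That gene was Rbp2, a retinol binding protein of enterocytes, at 0.293 FPKM in PID+ cells and 26.3 FPKM in PID- cells. Its change was -4.40 on the log2 scale, and its overlapping intervals were 0 to 0.801 and 0.658 to 51.9. The medians were 0.00 for 15 hydrolases, 0.01 for 16 lipid genes and -0.00 for 16 transporters. The highest means of the 2 conditions were those of Mgam among hydrolases, at 0.854 and 1.07 FPKM in PID+ and PID- cells, of Scarb1 among lipid genes, at 43.7 and 43.2 FPKM, and of Slc11a2 among transporters, at 26.1 and 18.8 FPKM.

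Of 19 brush border genes, Vil1 included, 1 was at least 3-fold higher, 0 were lower and the median log2 change was 0.01. Eps8l2, an actin regulator that is also found outside the gut, stood at 77.0 FPKM in PID+ cells and 16.4 FPKM in PID- cells. Its intervals, 20.8 to 133 and 2.96 to 29.8 FPKM, overlapped. Ezr, which encodes ezrin and is the most abundant of the list, stood at 334 and 327 FPKM. 12 of the 19 had an FPKM under 1 in both conditions.

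Of 22 colonocyte genes, Cdh17 and Lgals4 included, 2 were at least 3-fold higher and 2 lower, against 1.04% and 1.72% of all genes. The median log2 change of the 22 was 0.00. Scnn1a, a subunit of the epithelial sodium channel, stood at 67.1 FPKM in PID+ cells and 9.47 FPKM in PID- cells, with intervals apart. Scnn1g, another subunit, stood at 4.04 and 0.669 FPKM. Beside Cdh17 the lower gene was Car1, a carbonic anhydrase of the colon, listed at 0 in PID+ cells and at 5.55 FPKM in PID- cells. Car2, with the highest mean of the 2 conditions, stood at 113 and 169 FPKM. A further subunit gene, Scnn1b, stood at 2.18 and 0.783 FPKM and did not pass, and the intervals of Scnn1g overlapped.

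Across the gut lists together, 115 genes with the 9 included, 4 were higher and 6 lower in PID+ cells by 3-fold or more. Among all 21959 genes 1.04% were higher and 1.72% lower by this rule. The lists were chosen with earlier results of these data known. The median log2 change of the 115 was 0.00. The 6 lower genes were Cdx2, Cdh17, Nr1h4, Isx, Rbp2 and Car1. The 4 higher genes were Elf3, Eps8l2, Scnn1a and Scnn1g, of which none is among the 9. Among the 6 lower and 4 higher genes, only Cdh17 and Scnn1a had intervals apart. With Gapdh set equal, 1 of the 115 was higher (Scnn1a) and 10 were lower, a scaling that lowers every PID+ level and so can only take away higher calls and add lower ones. With equal totals or chromosome medians taken off, Elf3, Eps8l2 and Scnn1a were again higher, Scnn1g was not, and 6 were lower. With a pseudocount of 0.1, 8 of the 115 were higher, Fabp2 among them, and 9 were lower. Over all 21959 genes, 621 were higher and 795 lower with that pseudocount, and 76 and 662 with Gapdh set equal.

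The genes whose pair of levels lay nearest to that of Cdx2, by distance on log2(FPKM + 1) over the 2 conditions, were Lix1l, Adcy8, Cd53, Fgfr1 and Serpinb1a, at distances of 0.07 to 0.18. Those nearest to Cdh17 were Aldh3a1, Agpat4, Casp4, Brinp3 and Pgr, at distances of 0.14 to 0.35. With 2 conditions, any gene of like levels is near. On chromosome 5, the 6 nearest genes that reached 1 FPKM in PID+ or PID- cells, 3 on each side of Cdx2, had log2 changes of -2.26 to 0.11 with a median of -0.12. 1 of them, Flt1, was at least 3-fold lower, at 1.02 FPKM in PID+ cells and 8.67 FPKM in PID- cells, 254 kb away. Around Cdh17 the 6 such genes had changes of -1.10 to 0.55 with a median of -0.07, and 0 were past 3-fold.

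Markers of other cell types were measured beside these results. Of 10 fibroblast markers, 4 were lower by 3-fold or more in PID+ cells and 0 higher, against 1.72% and 1.04% of all genes. The summed level of the 10 was 5.80 FPKM in PID+ cells and 38.2 FPKM in PID- cells. Col1a1 had the highest mean of the 2 conditions, at 2.32 and 11.9 FPKM, Col1a2 stood at 0.0654 and 11.9 FPKM and Col3a1 at 0.339 and 6.35 FPKM. Dcn and Thy1 were listed at 0 in PID+ cells, and Lum was listed at 0 in both. Of 6 smooth muscle markers, 1 was lower (Actg2, 0.280 and 3.06 FPKM), and the sums were 6.05 and 16.0 FPKM with Acta2 the most abundant. Of the 10 fibroblast markers, 9 had a lower FPKM in PID+ cells, the direction of Cdx2 and Cdh17, whereas of the 6 smooth muscle markers 4 were lower by level and 2 higher. Their part in the result was not tested.

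Of 10 immune markers 0 were past 3-fold, with sums of 22.1 FPKM in PID+ cells and 17.2 FPKM in PID- cells that came mostly from Cd68, at 21.8 and 16.8 FPKM, and with Cd3e and Nkg7 listed at 0 in both. Of 6 endothelial markers 0 were past 3-fold, though 2 were with a pseudocount of 0.1. All 6 had a higher FPKM in PID+ cells, but 5 with equal totals, and 4 with Gapdh set equal or chromosome medians taken off. Their sums were 3.90 and 1.17 FPKM, with Kdr the most abundant and Emcn listed at 0 in PID- cells. Fewer cells of a kind and less RNA per cell cannot be told apart in these bulk values. The epithelial markers Cdh1, Epcam, Krt8, Krt18 and Krt19 were present in both conditions, so the cells were epithelial by these markers. Of the 9 genes as markers of intestinal epithelium, 4 (Cdx1, Hnf4a, Gata4 and Vil1) were at or under 0.382 FPKM in both conditions, and the other 5 reached 1.42 to 25.9 FPKM in at least 1. The colonocyte genes Gpa33, at 119 and 43.5 FPKM, and Krt20, at 158 and 73.5 FPKM in PID+ and PID- cells, were high in both, whereas 11 of the 22 colonocyte genes were under 1 FPKM in both conditions and 5 were listed at 0 in both. Markers of intestinal epithelium were thus present in part.

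Promoters are shown for 2 genes of lipid carriers, Fabp2 and Rbp2. Fabp2 was higher in PID+ cells, 3.60-fold by plain FPKM but not past 3-fold on FPKM + 1, and Rbp2 was lower. No window of Cdx1, Gata4, Gata6 or Cdh17 was searched, so nothing is said here about their promoters. For 5 of the 9 genes RefSeq promoter windows (GRCm38.p6) were used, with 6 windows in all. They were searched over the 250 bases before the start on both strands for the letters TTTATNG of CDX factors, AGATAA of zinc finger factors such as Gata4 and CAAAGTCCA of HNF4, which were found in 9.81%, 9.99% and 0.384% of 32851 windows of the same length. The motifs were present in 2 of the 6 windows, a CDX match in Fabp2 and a GATA match in Hnf4a, and not in those of Cdx2, Lgals4 and Vil1 or the other window of Hnf4a. Capitals mark matches in the windows chr3:122894822-122895071 (plus strand, Fabp2) and chr9:98490287-98490536 (plus strand, Rbp2), where the GATA and CDX matches are both on the reverse strand and the CDX match also reads as a TATA box.
Fabp2: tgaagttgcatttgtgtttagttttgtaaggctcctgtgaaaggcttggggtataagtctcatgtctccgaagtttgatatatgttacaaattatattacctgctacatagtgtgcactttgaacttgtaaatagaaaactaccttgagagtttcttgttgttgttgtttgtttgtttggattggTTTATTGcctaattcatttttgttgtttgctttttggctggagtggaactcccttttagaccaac
Rbp2: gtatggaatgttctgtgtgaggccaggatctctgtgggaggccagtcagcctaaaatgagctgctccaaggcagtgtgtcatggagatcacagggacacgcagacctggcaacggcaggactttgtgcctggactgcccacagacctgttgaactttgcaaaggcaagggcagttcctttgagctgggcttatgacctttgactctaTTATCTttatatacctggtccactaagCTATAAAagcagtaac
These 2 windows were chosen as the ones with a CDX match among 11 searched, which included 5 windows of the changed genes Rbp2, Isx, Nr1h4, Elf3 and Eps8l2. The Nr1h4 window held a GATA match at -131 on the reverse strand, and those of Isx, Elf3 and Eps8l2 held none of the motifs. The Nr1h4 window, like the Hnf4a window without a match, lies well inside the gene as Gencode annotates it. The CDX match lies at -65 in Fabp2 and -16 in Rbp2 from the RefSeq start used, which for Rbp2 lies inside the gene as Gencode annotates it (from 98486115), while the RNA of Fabp2 was 1.42 and 0.395 FPKM and that of Rbp2 0.293 and 26.3 FPKM in PID+ and PID- cells. A match describes letters and does not show binding.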

How the data were processed

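Poly(A) RNA of cultured cells was sequenced with an unstranded kit. Per the methods and the submitters' processing notes, the authors trimmed reads (cutadapt), aligned them to GRCm38.p3 with TopHat and Bowtie2, merged the reads of a condition and had CuffDiff estimate the deposited FPKM with its interval. From these, log2((FPKM in PID+ + 1)/(FPKM in PID- + 1)) was computed, with calls at 3-fold or where intervals lie apart; 7 genes with a failed estimate were left out. Symbols matched 21734 of 21966 identifiers, and coordinates came from Gencode M21 (GRCm38). A read's FPKM was estimated from genes with 1 transcript, with lengths shortened by 180 bases, the best of 31 corrections. The 9 members and 13 further lists were chosen with earlier results of these data known. Named were the 9 genes, in each list the 2 largest changes each way past 3-fold and the gene of highest mean FPKM, Gapdh, the epithelial markers Cdh1, Epcam, Krt8, Krt18 and Krt19, and the 5 genes nearest to Cdx2 and Cdh17; Dcn, Lum, Thy1, Cd3e, Nkg7, Emcn, Usp37, Flt1, Tff1, Hoxb13, Gpa33, Krt20, Krt14, Krt4 and Scnn1b were chosen after their values were seen, as were the chromosomal neighbors. Calls were checked on simulated data, with changes placed only in genes that averaged 10 FPKM or more and with little noise. That check does not cover changes at the low levels of most of the 9 genes, or the spread between cell lines. Python 3.11.15, numpy 2.4.6, pandas 2.3.3 and matplotlib 3.10.9 were used.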

Additional observations from a re-analysis of the deposited data

How the results depend on the processing

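The log2 changes of Cdx2 and Cdh17 stayed past 3-fold and lower in PID+ cells under each alternative that gave a value, over -3.66 to -2.55 and -3.87 to -3.02. With a pseudocount of 0.1, 1 of the 9 genes was at least 3-fold higher (Fabp2), as were 621 genes in all with 795 lower, against 229 and 377. With Gapdh set equal, which moved the median of genes averaging 5 FPKM or more by -0.58, 0 general epithelial genes were 3-fold higher, their median was 0.65, and the calls over all genes were 76 higher and 662 lower, or 10.3% higher against 37.8%. A minimum mean FPKM of 1 left 4 of the 9 genes with a median of -1.67. A minimum mean FPKM of 5 left 2, Gata6 and Cdh17, of which 1 was lower, with a median of -2.06, and 144 genes higher and 221 lower in all. Cdx2 passed the minimum of 1, and Gata6 and Cdh17 that of 5, through their PID- levels, so both medians are partly set by the filter and support nothing. By intervals apart, 1 of the 9 was lower, 1 general epithelial gene higher, and 41 genes higher and 119 lower in all. At 2-fold, 14 general epithelial genes were higher, and 726 genes higher and 828 lower in all. Of the further results, 295 kept their call or value, 46 moved by over 1.5 times, and Fabp2 passed 3-fold with the pseudocount of 0.1. Single genes were compared by call alone. With that pseudocount Gata4, Hnf4a and Vil1 had log2 changes of 1.45, 0.95 and 0.77, against 0.24, 0.27 and 0.15, and count as kept. With chromosome medians taken off, Gata4, below 3-fold in every setting, turned to -0.01. No paired analysis was possible because the values are pooled, and for the same reason no sample could be left out.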

Other observations

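Genes of neighboring endodermal organs were also mostly near 0. Of 19 stomach and oesophagus genes, 16 had an FPKM under 1 in both conditions, and the median log2 change was 0.02. Krt13, a keratin of stratified epithelium and the most abundant of them, was the 1 gene at least 3-fold lower in PID+ cells, at 5.53 and 37.6 FPKM in PID+ and PID- cells, and 0 were higher (3 with a pseudocount of 0.1). By level 13 of the 19 were higher, among them the keratins Krt14, at 2.18 and 0.0912 FPKM, and Krt4, at 1.34 and 0.196 FPKM. Tff1 was listed at 0 in PID- cells and stood at 0.897 FPKM in PID+ cells. Of 9 genes of other endoderm, 0 were past 3-fold, and Pax8 was the most abundant at 21.7 and 13.6 FPKM.

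Hoxb13, a homeobox gene of the hindgut, stood at 12.5 FPKM in PID+ cells and 12.3 FPKM in PID- cells. Gapdh, used as a reference, stood at 2570 and 1666 FPKM, a ratio of 1.54.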
